A study of Rattus norvegicus with 7 samples.

Results

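The broadest acetylated regions of S16, a rat Schwann cell line, are described here as they stand in a peak list for histone H3 acetylated at lysine 27 (H3K27ac). They are the single H3K27ac peaks of 3000 bp or more, 1823 of the 99514 peaks off the mitochondrial genome, and they were set beside the 27278 peaks of 1000 to 2000 bp. Members were chosen by their measured H3K27ac width, so that width is a description here and not a finding. The series holds 7 rat samples with 1 library per target: H3K27ac by ChIP-seq and NR2F2, YY1, RXRG and TEAD1 by CUT&RUN (antibody-guided nuclease release of bound DNA) in untreated S16 cells, and SREBP1 by ChIP-seq, with its input, in sciatic nerve of wild type rats at postnatal day 15. The S16 lists come from 1 line in culture, and the labels do not say whether nerves were pooled. The SREBP1 list thus has another source than the acetylation it is laid over. Read depth is unknown, and the H3K27ac list carries no height or score, so that a broad peak here is long, whatever its signal.

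H3K27ac is laid down by the acetyltransferases p300 and CBP and marks active promoters and enhancers. Long acetylated stretches are known from promoters of highly transcribed genes and from clusters of enhancers. YY1 is a zinc finger protein of promoters and enhancers and is needed in Schwann cells for myelination. TEAD1 brings the coactivators YAP and TAZ to DNA, NR2F2 is an orphan nuclear receptor, and RXRG is a retinoid X receptor that pairs with other nuclear receptors. SREBP1 switches on genes of lipid synthesis, on which myelin depends.

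The broad peaks had a median width of 3433 bp (middle 50% from 3182.5 to 3885.5 bp), against 1321 bp in the peaks of 1000 to 2000 bp and 737 bp in all H3K27ac peaks. They made up 1.83% of the peaks and 7.21% of the acetylated bases (6.64 of 92.0 Mb). Of the 1823, 1004 were narrower than 3500 bp, 438 were of 3500 to below 4000 bp, 300 of 4000 to below 5000 bp, and 81 of 5000 bp or more. All but 2 lay on placed chromosomes, where their share of the H3K27ac peaks ran from 0.930% to 2.48% with a median of 1.81%. The limit of 3000 bp cuts through a continuous distribution. Of the 3 narrowest members and the 3 widest peaks outside, the members measured 3000, 3000 and 3001 bp and held 2, 1 and 4 factor sites, and the peaks outside fell 1 or 2 bp short and held 1, 3 and 1. The 143 members within 50 bp of the limit held YY1 in 78.3% and TEAD1 in 62.9% of cases, and the 126 peaks up to 50 bp below it held YY1 in 77.0% and TEAD1 in 67.5%. On the same sides of the limit NR2F2 stood at 39.2% against 38.9%, RXRG at 30.1% against 21.4%, and SREBP1 at 35.0% against 28.6%. No neighbouring H3K27ac peaks in the list lay closer to each other than 925 bp, and the labels do not say whether shorter gaps were bridged when the list was made.

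The first question was how often the broad peaks held each factor, counting a peak that shared at least 1 bp. YY1 touched 1527 of the 1823 broad peaks (83.8%, exact binomial 95% interval 82.0 to 85.4%), against 50.04% of the peaks of 1000 to 2000 bp and 30.9% of all H3K27ac peaks. TEAD1 touched 1299 (71.3%, 69.1 to 73.3%), against 31.1%, with 19.0% over all H3K27ac peaks. These were the factors whose shares differed most between the classes. NR2F2 touched 818 (44.9%, 42.6 to 47.2%), against 29.2%, with 25.5% over all. SREBP1 of nerve touched 670 (36.8%, 34.5 to 39.0%), against 26.1%, with 15.0% over all. RXRG had the smallest difference, with 555 broad peaks (30.4%, 28.3 to 32.6%) against 26.9%, and 20.5% over all. With 1 library per target no test across samples is possible. The intervals cover counting error only, take each peak as independent, and say nothing of the spread between cultures or animals.

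Most broad peaks held several factors. No factor touched 145 of them (7.95%), against 34.0% of the peaks of 1000 to 2000 bp and 49.0% of all H3K27ac peaks. Broad peaks with 3 different factors were the most frequent, at 522 (28.6%), followed by 431 with 2 (23.6%) and 408 with 4 (22.4%). All 5 factors met in 123 broad peaks (6.75%, 5.64 to 7.997%), against 5.83% of the peaks of 1000 to 2000 bp, a difference within the interval, and 2.56% of all H3K27ac peaks. The most frequent combination was YY1 with TEAD1 and no other factor, in 287 broad peaks (15.7%) against 7.36%. Next came NR2F2, YY1 and TEAD1, in 209 (11.5%) against 2.32%. Where TEAD1 was present in a broad peak, YY1 was present too in 96.7% of cases, and without TEAD1 in 51.7%. RXRG was found in 31.2% of the broad peaks with TEAD1 and 28.6% of those without, so that its presence hardly varied with TEAD1. It was found in 43.3% of those with NR2F2, its fellow nuclear receptor, and 20.0% of those without. In the peaks of 1000 to 2000 bp RXRG varied more with NR2F2, at 60.3% with it and 13.1% without. It varied more with TEAD1 there too, at 38.7% with it and 21.6% without. YY1 stood there at 91.0% with TEAD1 and 31.6% without.

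A long peak has more room, and per kb the order changed. Taking each factor peak as a site at its midpoint, broad peaks held 0.966 sites of all 5 factors per kb, against 1.23 in the peaks of 1000 to 2000 bp. TEAD1 was the only factor denser in broad peaks, with 0.251 sites per kb against 0.227, a ratio of 1.11 (exact interval 1.05 to 1.17), and the ratio was above 1 on 17 of 21 placed chromosomes. YY1 had 0.346 against 0.378 per kb, a ratio of 0.916 (0.876 to 0.957), below 1 on 19 of 21 chromosomes. The others were sparser in broad peaks on all 21 placed chromosomes. NR2F2 had 0.156 against 0.234 per kb (ratio 0.668, 0.626 to 0.712), SREBP1 0.101 against 0.166 (0.606, 0.559 to 0.656), and RXRG 0.111 against 0.221 (0.505, 0.468 to 0.545). YY1 thus remained the densest factor in broad peaks, and TEAD1 stood above NR2F2 there, while in the peaks of 1000 to 2000 bp NR2F2 (0.234) and TEAD1 (0.227) lay close together.

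**Figure D1:**
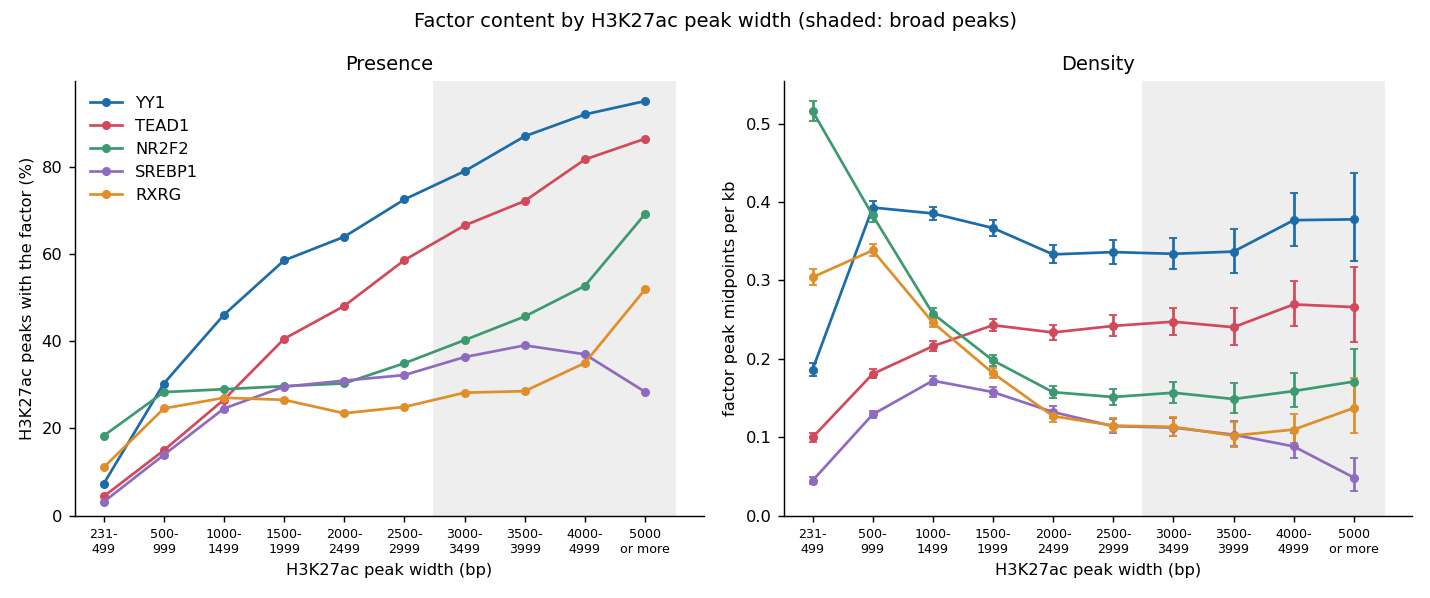
Presence of each factor (left, percent of H3K27ac peaks sharing at least 1 bp) and density (right, factor peak midpoints per kb of H3K27ac peak, with exact Poisson 95% intervals) in 10 classes of H3K27ac peak width, the broad peaks shaded. Presence of YY1 climbs with width to 95.1% at 5000 bp or more, while the densities of NR2F2 and RXRG are highest in the 2 narrowest classes (0.516 for NR2F2, 0.338 for RXRG) and stand at 0.157 and 0.113 at 3000 to below 3500 bp.

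The step in density lay below the broad peaks, as the plot of factor content by width shows. RXRG had 0.246 sites per kb at 1000 to below 1500 bp, 0.127 at 2000 to below 2500 bp and 0.113 at 3000 to below 3500 bp. NR2F2 likewise had 0.258, 0.157 and 0.157 in these classes. TEAD1 had 0.216, 0.234 and 0.247 in them, and already 0.243 at 1500 to below 2000 bp. Against the 6364 peaks of 2000 to below 3000 bp, a comparison added after the data were seen, the ratio was 1.01 (0.935 to 1.08) for NR2F2 and 1.04 (0.985 to 1.09) for YY1. In that comparison RXRG (0.910) and SREBP1 (0.803) kept ratios below 1, with intervals of 0.835 to 0.992 and 0.734 to 0.877, and TEAD1 stood at 1.06 (1.00 to 1.13). Among the broad peaks themselves, SREBP1 was the factor whose density went down with width, with 0.112 sites per kb at 3000 to below 3500 bp, 0.103 at 3500 to below 4000 bp, 0.0883 at 4000 to below 5000 bp and 0.0486 (0.0308 to 0.0729) at 5000 bp or more, the last from 23 sites. YY1 had 0.334, 0.337, 0.377 and 0.378 in the same classes, with intervals that overlap.

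Repeated sites of a factor were common in broad peaks. YY1 had 2 or more sites in 33.8% of them, against 2.98% of the peaks of 1000 to 2000 bp, and up to 6 in a single peak. TEAD1 had 2 or more in 17.6% against 1.27%, NR2F2 in 8.83% against 3.35%, and RXRG in 7.46% against 3.86%. SREBP1 had at most 2, in 19 broad peaks (1.04%). Consecutive YY1 sites in the same broad peak lay a median of 1409.5 bp apart (middle 50% from 964 to 2022 bp), and TEAD1 sites 1436.5 bp. Consecutive RXRG sites lay closer, 975.75 bp apart (589 to 1483 bp), and NR2F2 sites 1138 bp. Peaks of a list do not overlap, so that narrower peaks can lie closer. The median width was 184 bp in the RXRG list and 439 bp in the YY1 list. The part of peak width in the spacing was not tested. In the peaks of 1000 to 2000 bp the medians were 780.75 bp for YY1, 727 bp for TEAD1, 581.5 bp for RXRG and 704.75 bp for NR2F2, where the room is smaller.

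Most of a broad peak held no mapped factor. Factor peaks of any list covered 26.9% of the bases of broad peaks, against 31.3% in the peaks of 1000 to 2000 bp. By factor, YY1 covered 20.9% against 22.6%, TEAD1 11.01% against 8.66%, NR2F2 6.48% against 10.2%, SREBP1 4.85% against 7.89%, and RXRG 3.07% against 7.06%. TEAD1 was again the exception, with more of the bases covered in broad peaks. In the 1678 broad peaks with a factor, overlapping factor peaks merged into 1 cluster in 745 (44.4%), 2 clusters in 622 (37.1%) and 3 or more in 311 (18.5%). In the peaks of 1000 to 2000 bp with a factor, 83.7% held 1 cluster, 15.3% held 2, and 1.04% held 3 or more. Per kb of the peaks with a factor there were 0.492 clusters in broad peaks against 0.837 in the narrower class. Each such peak holds at least 1 cluster, so that this density follows in part from the widths. It also leaves out the peaks without a factor, which were more frequent in the narrower class. The longest stretch without a factor peak was 1653 bp in the median broad peak (1603 to 1694 bp, 46.2% of its width), and 560 bp (40.1%) in the narrower class. In 527 of the broad peaks with a factor (31.4%) that stretch exceeded 2000 bp, a length that peaks of the narrower class cannot hold.

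The second question was where along the peak the sites lay. Each peak was divided into 5 equal parts. Even placement puts 20% of sites in each part and 40% in the 2 at the ends, called the outer parts below. RXRG had the highest outer share. The outer parts of broad peaks held 337 of its 740 sites (45.5%, 41.9 to 49.2%) and the middle part 122 (16.5%, 13.9 to 19.4%), so that the middle was sparser than even placement and the ends denser. In the peaks of 1000 to 2000 bp RXRG had the opposite profile, with 28.2% of sites (27.3 to 29.2%) in the outer parts and 26.6% in the middle one. NR2F2 was spread almost evenly in broad peaks, with 37.1% (34.2 to 40.1%) in the outer parts and 21.4% in the middle, against 25.9% and 30.1% in the narrower class.

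The other 3 factors had a smaller share of sites in the outer parts of broad peaks than the 40% of even placement. YY1 had 33.4% of its 2298 sites (31.4 to 35.3%) in the outer parts and 23.8% in the middle, against 18.2% and 38.8% in the peaks of 1000 to 2000 bp. The gap depended on how sites were counted: by covered bases the outer parts held 29.4% of YY1 in broad peaks against 24.3%, and in peaks with a single YY1 site 21.1% against 14.8%. TEAD1 had 29.1% of 1668 sites (26.96 to 31.4%) in the outer parts and 25% in the middle, against 19.4% and 33.0%. SREBP1 had nearly the same profile in both classes, with 30.6% of 669 sites (27.2 to 34.3%) in the outer parts against 31.3%, and 23.6% in the middle against 26.5%. The outer share was higher in broad peaks than in the narrower class on all 21 placed chromosomes for YY1, on 20 for NR2F2 and for TEAD1, on 19 for RXRG, and on 12 for SREBP1. Within broad peaks alone, the RXRG outer share was above the 40% of even placement on 15 of the 21. On single chromosomes these shares rest on as few as 8 sites in broad peaks.

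**Figure D2:**
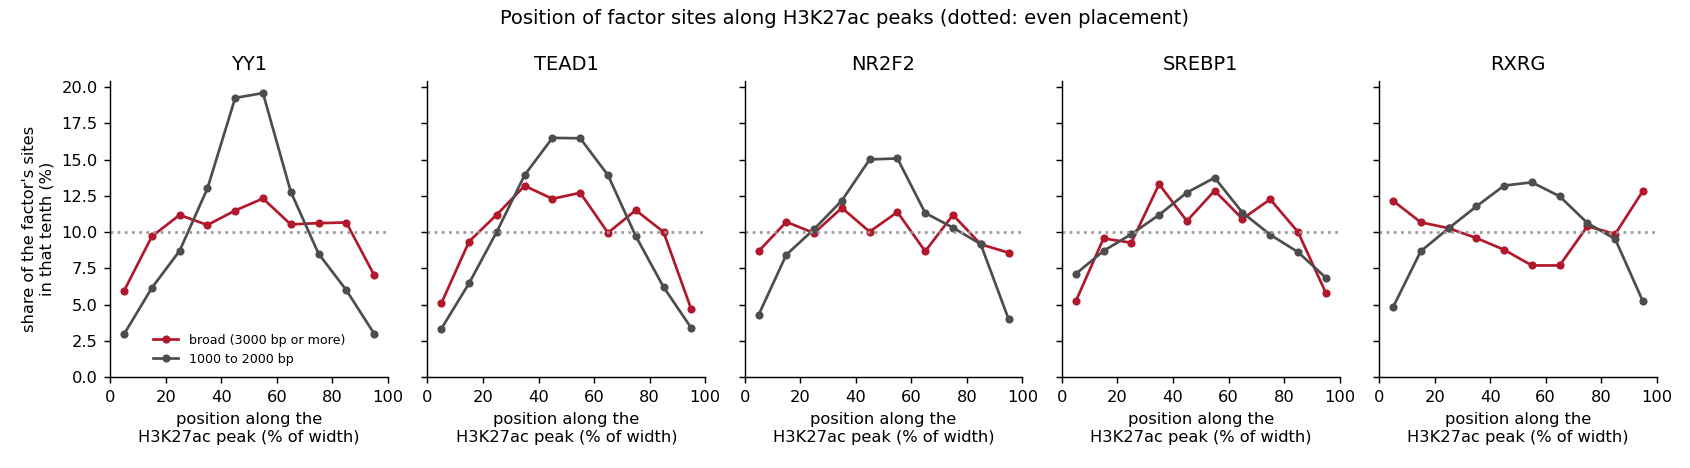
Share of each factor's sites (midpoints, percent) in each of 10 equal segments of the H3K27ac peak, from one end at 0 to the other at 100% of its width, for broad peaks and peaks of 1000 to 2000 bp, with a dotted line at the 10% of even placement. RXRG in broad peaks lies above the line at both ends (12.2 and 12.8%) and below it in the middle (8.78 and 7.70%), while YY1 in the narrower class peaks at 19.2 and 19.6% in the middle.

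In bp, the median RXRG site lay 791.25 bp (718.5 to 860.5 bp) from the nearer end of its broad peak, where even placement along these same peaks gives about 949 bp. NR2F2 lay at 965 bp (915.5 to 1011.5 bp), YY1 at 1023.75 bp (985 to 1059.5 bp), SREBP1 at 1042.5 bp (970.5 to 1103.5 bp) and TEAD1 at 1073.25 bp (1029 to 1114 bp). Within 500 bp of an end lay 34.1% of the RXRG sites of broad peaks, against the 27.4% of even placement. For TEAD1 it was 15.0% and for SREBP1 18.5%, where even placement gives 27.3% and 28.3%. In the peaks of 1000 to 2000 bp all 5 factors fell short of even placement within 500 bp of an end, RXRG with 68.4% against 74.7%. Factors in the same broad peak were compared by the mean distance of their sites from its centre. RXRG lay nearer the ends than YY1 in 56.8% of 482 broad peaks with both (52.3 to 61.3%) and than TEAD1 in 56.3% of 394 (51.3 to 61.3%). It did so relative to NR2F2 in 49.9% of 347 (44.5 to 55.2%) and to SREBP1 in 53.1% of 192 (45.8 to 60.3%), both with intervals that hold 50%. In the narrower class RXRG lay nearer the ends than YY1 in 62.2% of 5350 peaks, a higher share than in broad peaks. There it did so relative to NR2F2 in 52.4% of 4733, to TEAD1 in 47.9% of 3196 and to SREBP1 in 36.2% of 2353.

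The profiles across the ends give the density of each factor by absolute distance. In the first 500 bp inside broad peaks RXRG had 0.138 sites per kb and at 1000 to 1500 bp 0.0965. TEAD1 had 0.138 and 0.305, YY1 0.245 and 0.403, SREBP1 0.0680 and 0.122, and NR2F2 0.134 and 0.165. RXRG was thus the only factor whose density decreased from the end of broad peaks inward. Its ends were not denser than those of the narrower class. In the first 500 bp inside the peaks of 1000 to 2000 bp RXRG had 0.208 sites per kb, and all other factors were denser there too. In the first 250 bp RXRG had 0.153 in that class against 0.138 in broad peaks. Just outside, in the first 1000 bp beyond the end and leaving out other H3K27ac peaks, RXRG had 0.0156 per kb, no more than the 0.0212 found 2000 to 3000 bp away. TEAD1 (0.0263 per kb) and YY1 (0.0255) were denser in that first 1000 bp outside than 2000 to 3000 bp away (0.00832 and 0.00861). SREBP1 had 0.0211 there at broad peaks, against 0.0377 at the peaks of 1000 to 2000 bp.

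**Figure D3:**
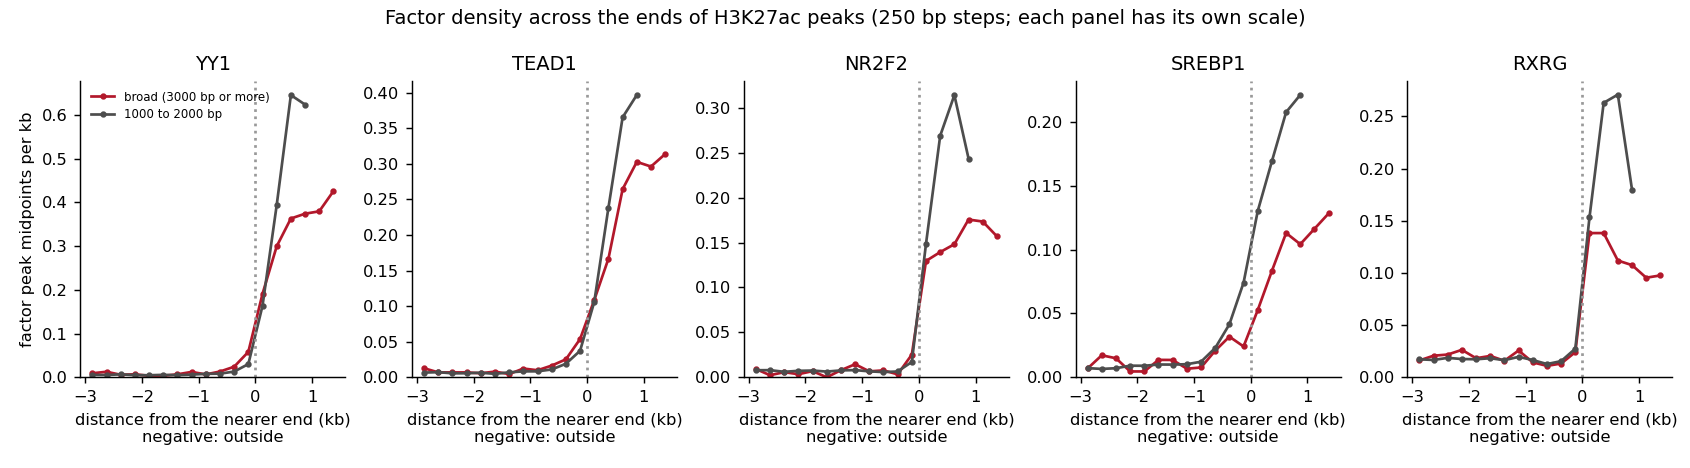
Factor sites per kb in steps of 250 bp from 3 kb outside to 1.5 kb inside the ends of H3K27ac peaks, for broad peaks and peaks of 1000 to 2000 bp, with bases of other H3K27ac peaks left out on the outside and each peak counted inside only up to its centre. In broad peaks the RXRG line is highest in the first 500 bp inside (0.138 per kb), while the TEAD1 and YY1 lines climb inward (to 0.305 and 0.403 per kb at 1000 to 1500 bp).

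For each factor, sites in broad peaks that touched any other factor had a lower outer share than sites alone. For RXRG and SREBP1 the 2 intervals overlapped. With RXRG as the partner this did not hold for all. YY1 sites touching RXRG had 42.8% in the outer parts, against 41.7% of lone ones. For SREBP1 it was 44.2% of 52 against 37.0%, and for TEAD1 38.9% against 42.1%, all with overlapping intervals. Of the RXRG sites in broad peaks, 216 touched no other factor, and 52.3% of these (45.4 to 59.1%) lay in the outer parts, against 42.7% (38.5 to 47.1%) of the 524 that touched one. Lone NR2F2 sites were likewise at the ends in 52.4% (42.4 to 62.4%) of 103 cases, against 35.4% of the 934 with another factor. NR2F2 sites that touched RXRG lay in the outer parts in 46.6% of 307 cases (40.9 to 52.3%), and those that touched TEAD1 in 30.2% of 681 (26.8 to 33.9%). The 2 sets share sites. In the peaks of 1000 to 2000 bp lone RXRG sites were in the outer parts in 57.1% of 1757 cases, within the interval for broad peaks, and those with another factor in 20.5% of 6537. For RXRG the classes thus stood apart in the sites shared with another factor, 42.7% against 20.5%. Lone YY1 and TEAD1 sites differed between the classes too, with 41.7% (37.4 to 46.2%) against 31.3% for YY1 and 42.1% (33.3 to 51.2%) against 27.6% for TEAD1.

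Peaks with a single site of a factor were also set apart. The distances to the ends follow in part from the widths that define the classes, and are given as a description. For the 900 broad peaks with a single YY1 site, the site lay a median of 1156.5 bp from the nearer end and 2327.75 bp from the farther one, against 497.5 and 879.5 bp in the narrower class. Only 21.1% (18.5 to 23.9%) of these YY1 sites fell in the outer parts, against 33.4% of all YY1 sites in broad peaks, and single TEAD1 sites did so in 22.4% of 958 peaks (19.8 to 25.2%), against 29.1% of all TEAD1 sites. The other factors showed no such drop. Single NR2F2 sites were in the outer parts in 35.1% of 647 peaks, against 37.1% of all NR2F2 sites. For SREBP1 it was 29.8% of 631 peaks against 30.6%. Single RXRG sites were there in 49.8% of 410 peaks (44.8 to 54.7%), against 45.5% of all RXRG sites. They had 729.5 bp to the nearer end and 2837.5 bp to the farther.

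Factors in the same broad peak did not always share a site. YY1 and TEAD1 nearly always did: of 1235 broad peaks with midpoints of both, their peaks overlapped in 97.6% (96.6 to 98.4%), against 98.2% in the narrower class. NR2F2 and YY1 overlapped in 93.2% of 761 (91.1 to 94.9%), against 97.2%. NR2F2 and RXRG overlapped in 66.7% of 348 (61.4 to 71.6%), against 90.9%. RXRG and TEAD1 overlapped in 46.2% of 394 (41.2 to 51.3%), against 75.1%, and their nearest midpoints lay a median of 441 bp apart, against 182 bp. RXRG and nerve SREBP1 overlapped in 25.5% of 192 (19.5 to 32.3%), against 54.3%. All 10 pairs had a lower share in broad peaks, YY1 with TEAD1 by less than its interval. A longer peak leaves more room for sites to lie apart, and the part of that room in these differences was not tested.

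**Figure D4:**
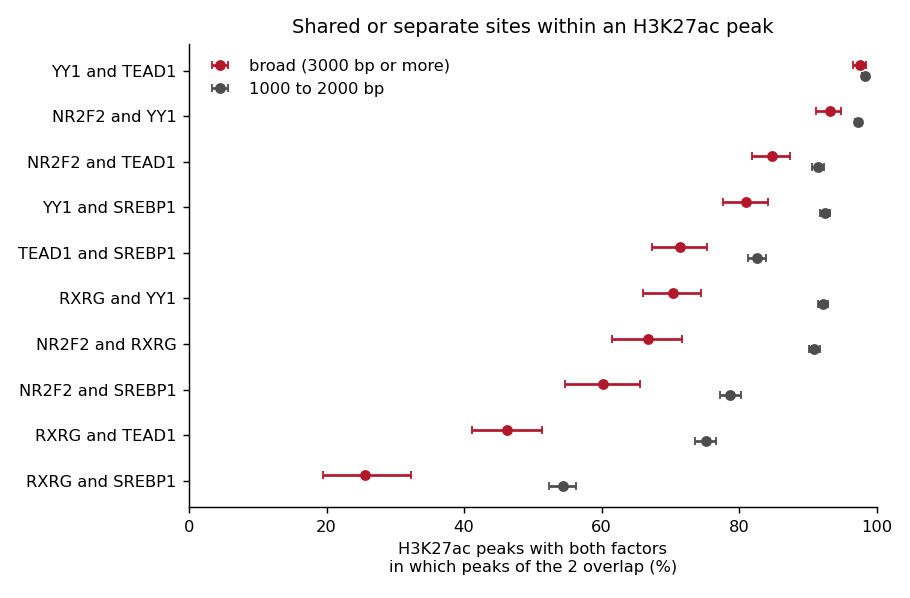
For each pair of factors, the percent of H3K27ac peaks holding midpoints of both in which a peak of one overlaps a peak of the other by at least 1 bp, in broad peaks and in peaks of 1000 to 2000 bp, with exact binomial 95% intervals. The 4 pairs with RXRG stand between 25.5 and 70.3% in broad peaks and between 54.3 and 92.1% in the narrower class.

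Of the factor peaks inside, those of TEAD1 and RXRG differed most in width between the classes. TEAD1 peaks were wider in broad H3K27ac peaks, with a median of 382 bp (371 to 398 bp) against 343 bp (339 to 348 bp). RXRG peaks were narrower there, at 211.5 bp (200 to 222 bp) against 255 bp (250 to 259 bp). NR2F2 peaks had 346 bp (327 to 366 bp) against 369 bp (363 to 375 bp). YY1 peaks had 550 bp (529 to 567 bp) against 571.5 bp (564 to 579 bp). For NR2F2 and YY1 the intervals of the classes overlap, though the medians of the narrower class lie above the intervals of the broad peaks. In the narrower class RXRG peaks were wider in the middle part (329 bp) than in the outer ones (197 bp), but in broad peaks both medians were 203 bp. The RXRG sites at the ends of broad peaks were therefore no narrower than those in their middle. SREBP1 peaks all have 1 width and were left out.

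The third question was how far the broad peaks lay from other acetylated regions. The nearer neighbouring H3K27ac peak began a median of 4986 bp away (4873 to 5106 bp) for broad peaks, against 5648 bp (5589 to 5699 bp) for the peaks of 1000 to 2000 bp and 5550 bp for all H3K27ac peaks. The farther of the 2 neighbours was at 9572.5 bp against 13036 bp. At short range the classes differed little: 13% of the broad peaks (11.5 to 14.6%) had a neighbour within 2000 bp, against 14.3%, with 16.2% over all H3K27ac peaks. They parted at longer range, with 89.2% (87.7 to 90.6%) of broad peaks having a neighbour within 10 kb, against 76.4%, and 6 of 1823 (0.329%) having none within 50 kb, against 2.51%. Measured from centre to centre, which adds the half-widths of both peaks, the order was the other way round, 7456.5 bp for broad peaks against 6875 bp.

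**Figure D5:**
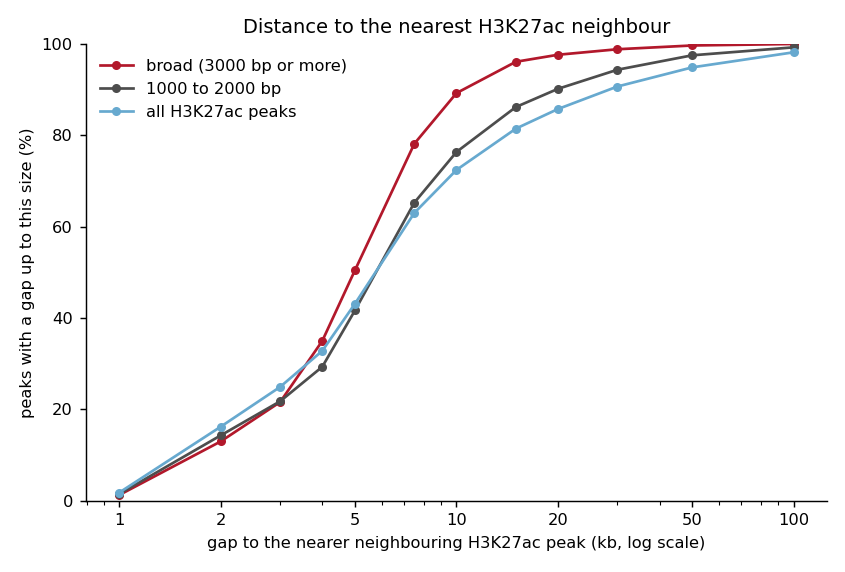
Cumulative percent of H3K27ac peaks whose nearer neighbour on the same chromosome lies within the gap on the x axis (kb, log scale, from end to end), for broad peaks, peaks of 1000 to 2000 bp and all H3K27ac peaks. At 3 kb the broad peaks stand at 21.6%, against 21.8% in the narrower class and 24.9% over all H3K27ac peaks, and at 5 kb at 50.5%, against 41.7% and 43.1%.

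Broad peaks lay in denser surroundings, and their direct neighbours were more often broad. Within 50 kb of either end lay a median of 11 other H3K27ac peaks (10 to 11), against 8, with 11.6 kb of other acetylated bases against 7.59 kb. Over all H3K27ac peaks the medians were 7 peaks and 6.43 kb. Their direct neighbours were wider, with a median of 979 bp (949 to 1020 bp) against 803 bp (796 to 812 bp), and 186 of 3645 neighbours (5.10%, 4.41 to 5.87%) were broad themselves, against 2.17% for the peaks of 1000 to 2000 bp. Over all H3K27ac peaks 1.83% of neighbours were broad. The 186 broad neighbours make 93 adjacent pairs of broad peaks, and the longest run held 4 in a row. The next broad peak lay a median of 118 kb away (middle 50% from 31.2 to 458 kb), within 50 kb for 612 (33.6%) and within 10 kb for 183 (10.0%). The distance to a broad peak was not measured for the narrower class. Neighbours of 1000 to 2000 bp beside a broad peak held NR2F2 in 23.5% of 1159 cases (21.1 to 26.0%), against 27.8% of 13628 beside a peak of 1000 to 2000 bp. They held SREBP1 in 23.8% (21.4 to 26.4%) against 27.3%, and TEAD1 in 30.6% (28.0 to 33.4%) against 31.4%. Neighbours of other widths were not counted here.

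Members with a factor were only slightly longer than members without it. Those with YY1 had a median width of 3473 bp (3439 to 3512 bp) against 3323 bp (3267 to 3345 bp) for the 296 without, and those with TEAD1 3479 bp against 3344.5 bp. For SREBP1 the widths hardly differed, 3438.5 against 3431 bp, but the 670 broad peaks with nerve SREBP1 had their nearer neighbour farther away, at 5385.5 bp (5152 to 5640 bp) against 4758 bp (4551 to 4950 bp). For the other 4 factors the gaps of members with and without the factor had overlapping intervals.

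Single peaks show the range, with positions on build rn5 counted from 1. No gene names or sequences of that build were used here. The widest, at chromosome 12, 15830960 to 15840861, measured 9902 bp and held 10 sites: 3 each of YY1 and TEAD1 and 2 each of NR2F2 and RXRG. Its 3 TEAD1 sites lay 1072, 2203 and 3545 bp from its start and its YY1 sites at 630, 1876 and 3477 bp. Its RXRG sites lay at 397 and 8839 bp, that is at 4.01 and 89.3% of its length. The stretch between 3545 and 8839 bp held no factor midpoint. The next widest were chromosome 16, 7701460 to 7709321 (7862 bp, 5 sites, YY1 and TEAD1 only), chromosome 10, 49318542 to 49326372 (7831 bp, 7 sites), chromosome 9, 37839259 to 37847057 (7799 bp, 7 sites) and chromosome 1, 228134544 to 228142051 (7508 bp, 10 sites). None of these 5 held SREBP1.

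The broad peaks with the most sites were not the widest. At chromosome 6, 39269402 to 39274763 (5362 bp), 20 sites lay together, 6 each of NR2F2 and RXRG, 5 of YY1 and 3 of TEAD1. The peak at chromosome 1, 13553027 to 13558857 (5831 bp) held 18, and chromosome 1, 56850794 to 56854177 held 17 in 3384 bp, or 5.02 per kb, with 5 of NR2F2 and 4 each of RXRG, YY1 and TEAD1. None of the 3 held SREBP1. In the last, NR2F2, RXRG, YY1 and TEAD1 sites recurred side by side along the peak, at 927, 893, 908 and 957 bp from its start and again at 2579, 2589, 2540 and 2535 bp. At the other extreme, the widest broad peaks touched by no factor were chromosome 3, 62405318 to 62410573 (5256 bp), chromosome 3, 181699991 to 181704806 (4816 bp) and chromosome 9, 80958032 to 80962553 (4522 bp). The most isolated members were chromosome 2, 68029693 to 68033558 (3866 bp, nearer neighbour at 85338 bp), with 1 site each of NR2F2 and RXRG, and chromosome 18, 38069921 to 38073186 (3266 bp, neighbour at 81247 bp). That peak on chromosome 18 held all 5 factors with 16 sites, 4 each of NR2F2, RXRG and YY1, 3 of TEAD1 and 1 of SREBP1.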

How the data were processed

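The deposited files hold peak positions only, with no height or fold per peak. The deposited score of the SREBP1 list is 1 in every peak and was not used. Build rn5 and, as tools with no stated role, MACS2, Bowtie2, deepTools, bedtools and bcl2fastq 2.20.0.422 come from the submitters' processing notes. Those notes, as used here, give neither peak thresholds nor controls. Mitochondrial peaks were dropped (2 of H3K27ac). A factor peak was present with at least 1 bp of overlap. Densities and positions used its midpoint, over bases of H3K27ac peak. Intervals at 95% are Clopper-Pearson for shares, conditional binomial for density ratios and order-statistic for medians. They cover counting error over peaks only, and clustering along the genome makes them too narrow. No sample-level test is possible with 1 library per target. Functions were tested on simulated data. Width limits, measures and alternatives were chosen with earlier results of these data known. Named peaks are the 5 widest, the 3 with the most sites, the 3 widest without a factor, the 2 most isolated, and 3 on either side of 3000 bp. Python 3.11.15, NumPy 2.4.6, SciPy 1.17.1, pandas 2.3.3 and Matplotlib 3.10.9 were used.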

Additional observations from a re-analysis of the deposited data

How the results depend on the processing

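The 16 results were recomputed under the alternatives that apply to each, which gave 83 values. Of these, 53 stayed within the interval of the reported value, 27 left it without a change of direction, and 3 changed direction. With broad set at 4000 bp or more (381 peaks), YY1 was present in 92.7%, TEAD1 in 82.7%, NR2F2 in 56.2% and RXRG in 38.6%, the outer parts held 43.1% of NR2F2, 38.1% of YY1 and 34.6% of TEAD1 sites, the density ratio was 0.998 for YY1, 1.18 for TEAD1 and 0.467 for SREBP1, and the nearer gap was 4740 bp. NR2F2 thus passed the 40% of even placement there, in an interval (37.3 to 49.0%) that holds it. The YY1 interval there (34.4 to 41.9%) holds 40% too. Against peaks of 500 to 1000 bp the density ratio was 0.408 for NR2F2, 0.330 for RXRG, 1.39 for TEAD1 and 0.781 for SREBP1. Against 2000 to below 3000 bp, added after the data were seen, it changed direction for NR2F2 (1.01) and YY1 (1.04), with intervals that hold 1, and was 0.910 for RXRG and 0.803 for SREBP1. With the wider factor peaks of each list (above its median width) it was 0.622 for NR2F2, 0.427 for RXRG and 1.26 for TEAD1, and, added later, the outer share of YY1 was 28.4% (8.48% in peaks of 1000 to 2000 bp). Counting any overlap gave SREBP1 0.541. Counting covered bases gave YY1 29.4% in the outer parts (24.3% in that class), and peaks with a single site gave 21.1% for YY1 (14.8%), 22.4% for TEAD1 (17.3%) and 49.8% for RXRG (25.3%). The nearer gap was 5830 bp, against 7294 bp, with neighbours of at least 500 bp only, and changed order from centre to centre (7456.5 against 6875 bp). The causes were not tested, apart from the half-widths that the centres add. The midpoint and 50% rules for presence, joining within 1 kb (2038 broad peaks) and placed chromosomes stayed within the intervals. The midpoint and 50% rules gave the same presence for each factor, yet count as separate values among the 53. Placed chromosomes leave out only 2 broad peaks, so little change was possible there. The planned look at gene starts and sequence content was not run, for want of an rn5 reference. No paired analysis was possible because no target has a second library.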

Other observations

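Each peak of the SREBP1 list has a name that ends in a number, which no comparison above uses and whose meaning the labels do not state. Cutting each chromosome's numbers into 4 ranges of like size placed 55.01% of the 669 SREBP1 sites in broad H3K27ac peaks (51.1 to 58.8%) in the lowest range, against 58.3% of the 6249 in peaks of 1000 to 2000 bp (57.1 to 59.5%) and 19.8% of the 17361 outside H3K27ac. SREBP1 sites in broad and in narrower acetylated peaks were thus alike in this respect, with intervals that overlap.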
